A study of Homo sapiens with 55 samples.

Results

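The splicing events of 6 human genes were followed through cells that carried guides against GPATCH8: WDR60, ACIN1, SIRT2, ACSL6, ALDOC and CSNK1D. The genes were picked from these same data, because the comparison of sgGPATCH8 with control libraries had shown higher usage of 1 or more of their isoforms. The size and direction of that difference are therefore a description, with no test. Members are the events whose listed coordinates all lie on the gene's strand and within its span in build hg19. There were 67 of them among 110818 events: 22 in SIRT2, 20 in CSNK1D, 10 in ACIN1, 7 in ALDOC, 5 in ACSL6 and 3 in WDR60. They comprised 28 cassette exons, 19 alternative 3' splice sites, 12 alternative 5' splice sites, 6 pairs of mutually exclusive exons and 2 retained introns. Of the 67, 61 had a value in every library.

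Sequencing of polyadenylated RNA covered 2 established lines, K562 (leukemia) and 293T (embryonic kidney). The K562 cells were SF3B1 wild type (WT) or carried a knocked-in SF3B1 K700E mutation, or overexpressed SRSF2 WT, SRSF2 P95H, U2AF1 WT or U2AF1 S34F. The guides were sgRenilla, a control directed at a luciferase gene that human cells lack, sgGPATCH8, and, in the SF3B1 and 293T panels, sgSUGP1. The SF3B1 panel had 1 sgRenilla library and 2 libraries with different guides for each target in each genotype, every one read in a pair of sequencing runs that were averaged. The SRSF2 and U2AF1 panels had 3 libraries per group. In 293T there were 2 control libraries and 4 for each target, from 2 guides with 2 replicates each. In total there were 44 libraries. Overexpression adds a mutant or WT copy to cells that keep their own gene. Nothing in the labels says that replicates came from separate cultures or how many clones the knock-in cells represent, so p-values measure the spread between these libraries, which may be technical. The 293T libraries carry the labels WT-1 and WT-2, which were not matched to guide numbers. An event's value is its first isoform's usage, in percent of all isoforms of that event, and differences are in percentage points. Reads behind each value are not given, so depth is unknown and no counting interval was computed. The files hold isoform usage and no expression levels, so neither the loss of GPATCH8 nor the lines' marker genes were checked here. Replicate 1 of every U2AF1 group stood apart: in 8 of the 61 events it differed from replicates 2 and 3 by at least 10 points on average over the 4 groups, among them the leading events of ACIN1 and SIRT2, and the leading differences in that panel are given with and without it.

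As background, GPATCH8 and SUGP1 are proteins with a G-patch, a short motif through which such proteins bind and activate RNA helicases of the spliceosome. SF3B1 is the spliceosome subunit that holds the branch point, U2AF1 reads the AG of the 3' splice site, and SRSF2 binds exonic enhancers. A cassette exon is kept or skipped, and the choice rests on its splice sites being recognised against those of its neighbours. WDR60 encodes an intermediate chain of dynein-2, the motor of retrograde transport in cilia. ACIN1 encodes acinus, a component of the ASAP complex that joins the exon junction complex. SIRT2 encodes a cytosolic NAD-dependent deacetylase. ACSL6 encodes a long-chain acyl-CoA synthetase, whose mutually exclusive exons encode alternative forms of the gate of its fatty acid tunnel. ALDOC encodes aldolase C of glycolysis, and CSNK1D encodes casein kinase 1 delta, a kinase of the circadian clock.

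Sequences at splice sites of these events are shown first. For WDR60 the site is the upstream one, not the downstream one whose usage rose. For CSNK1D it is that of the 64-nt exon, which carried the gene's most negative difference. The CSNK1D leading pair could not be read from the transcripts. The sequences are given 5' to 3' on the gene's strand, from GENCODE 29 transcripts in build GRCh38, in lower case. Capitals mark the GT of a 5' splice site or the AG of a 3' splice site, and in ALDOC the run that holds both AGs. The deposited events use build hg19, and no coordinate was converted between the builds.
WDR60 upstream 5' splice site, chr7:158902581-158902610: aggagcccaggacagGTaaacaaatcaatg
ACIN1 62-nt exon, 30 intron bases before it, chr14:23071187-23071216: gtttggtttttgttatttcttccattccAG
SIRT2 47-nt exon, 30 intron bases before it, chr19:38898426-38898455: actgtaaccacctctgctcccctcccccAG
ACSL6 upstream exon, both 3' splice sites, chr5:131974944-131974985: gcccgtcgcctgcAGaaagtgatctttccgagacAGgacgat
ALDOC 56-nt and 53-nt exon, both 3' splice sites, chr17:28576015-28576044: tgttcttccaaccttttcctctAGAAGctg
CSNK1D 64-nt exon, 30 intron bases before it, chr17:82246040-82246069: ttaccaacagctgtcttttccccacctcAG
The 20 bases ending at the AG held 15 pyrimidines in ACIN1, 17 in SIRT2, 13 before the ACSL6 upstream exon, 16 before the longer ALDOC exon and 16 in CSNK1D. The ACSL6 sites lie 21 bases apart and the ALDOC sites 3 bases apart, where the longer exon includes the bases between them.

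Across the 61 events that had values in all 7 comparisons of sgGPATCH8 with sgRenilla (SF3B1 WT and K700E, SRSF2 WT and P95H, U2AF1 WT and S34F, and 293T), 14 were higher in all 7 and 10 were higher by at least 10 percentage points in all 7. Those 10 were 1 of the 3 WDR60 events, 2 of ACIN1, 3 of SIRT2, 2 of ACSL6 and 2 of ALDOC. Within each gene the events counted here concern the same exon or pair of exons, so they are not separate sites. Of the 20 CSNK1D events, 17 had values in all 7 comparisons and 0 of those reached 10 points in all 7. Its leading event had values in every library of 4 comparisons and was higher in all 4. Of the 65 events with a value in every library of 1 or more panels, 41 stayed under 5 points in either direction in every such comparison, and 3 were lower by at least 10 points in 1 or more. Over the whole series, 69122 events were complete in all 44 libraries, of which 32 (0.0463%) were higher by at least 10 points in all 7 comparisons and 55 (0.0796%) were lower, and 10 of the 32 lie in the 6 genes, as the choice of the genes implies.

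**Figure D1:**
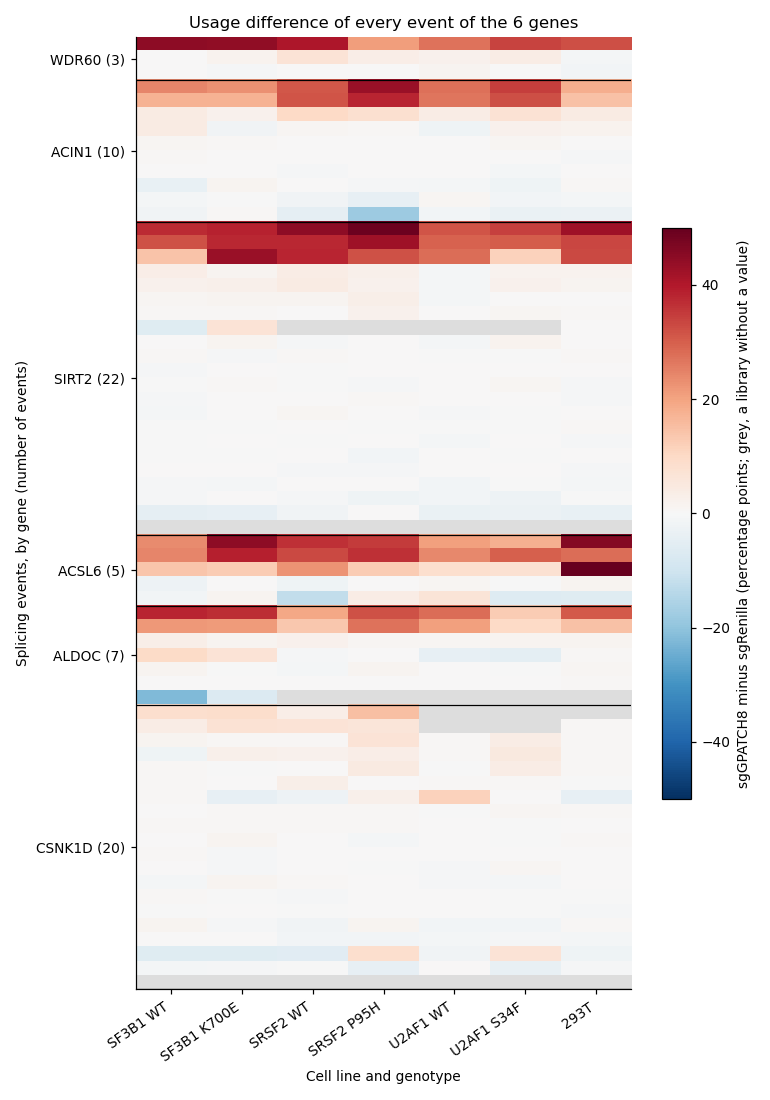
Difference in usage, sgGPATCH8 minus sgRenilla, in percentage points (color scale), for each of the 67 events (rows, grouped by gene) in 7 cell lines and genotypes (columns). Dark red rows are 1 to 3 events each of WDR60, ACIN1, SIRT2, ACSL6 and ALDOC, most rows are pale, and grey cells lack a value in some library.

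The largest difference of WDR60 was at an alternative 5' splice site. Its isoform listed first uses the downstream site (hg19 chr7:158697974-158698680 against 158695286-158698680, plus strand), which lies 2688 bases beyond the upstream site and cuts the intron from 3393 to 705 bases. In GENCODE 29 this junction is annotated only in WDR60-205, a transcript classed as retained intron. In sgRenilla cells the downstream site was used at 8.5% in SF3B1 WT, 5% in SF3B1 K700E, and 7% and 7% in 293T. With sgGPATCH8 the same cells gave 56% and 50.5%, 52.5% and 46%, and 43%, 35%, 43% and 36%. The sgGPATCH8 libraries of these 3 comparisons all lay above their controls, by 44.75, 44.25 and 32.25 points on the mean. In 293T the mean with sgGPATCH8 was 39.25% ± 4.35 (SD, n = 4).

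In the overexpression panels the WDR60 controls were higher, at 23% to 41%. The SRSF2 WT libraries gave 33%, 31% and 32% with sgRenilla and 70%, 75% and 72% with sgGPATCH8, and the SRSF2 P95H libraries 37%, 40% and 37% against 56%, 60% and 61%. The U2AF1 WT libraries gave 23%, 32% and 29% against 44%, 61% and 61%, and the S34F libraries 28%, 39% and 41% against 70%, 70% and 69%. The groups did not overlap in any of these 4. The mean differences were 40.33 points in SRSF2 WT, 21 in P95H, 27.33 in U2AF1 WT and 33.67 in S34F, against 30.5 and 29.5 for the last 2 without replicate 1. The SRSF2 means were 32% ± 1 and 72.33% ± 2.52 in WT and 38% ± 1.73 and 59% ± 2.65 in P95H (SD, n = 3 each). The other 2 WDR60 events differed by at most 7 points, and the most negative difference of the gene was -1.25 points, in 293T (99.5% to 98.25%), at a cassette exon whose usage was 95% or above in every library.

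In ACIN1 the difference lay at a 62-nt cassette exon (hg19 junction chr14:23540395-23540636 against 23538826-23540636, minus strand; GRCh38 exon chr14:23071125-23071186). GENCODE 29 places the start codon of ACIN1-203 and ACIN1-217 within the exon, whose length is not a multiple of 3. The coding part, with the start codon in capitals, reads ATGttatcagaaagcaaagaagg. With sgRenilla the exon was used at 32% in SF3B1 WT, 23.5% in K700E, 18%, 25% and 21% in SRSF2 WT, and 25%, 23% and 26% in P95H. With sgGPATCH8 it was used at 59% and 53.5%, 49% and 43.5%, 51%, 58% and 48%, and 67%, 68% and 68%, respectively. The sgGPATCH8 libraries lay above the controls in each group, and the largest difference of the gene, 43 points, was in SRSF2 P95H.

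In U2AF1 WT the exon gave 45%, 26% and 24% with sgRenilla and 69%, 57% and 52% with sgGPATCH8. In S34F it gave 42%, 20% and 23% against 71%, 56% and 62%. In 293T it gave 37% and 45% against 63%, 55%, 62% and 57%. Replicate 1 of each U2AF1 group stood above replicates 2 and 3, by 12 to 20.5 points in this ACIN1 exon, and the differences of 27.67 and 34.67 points in WT and S34F were 29.5 and 37.5 without it. The splice junction on the other side of the same exon, listed as an alternative 5' splice site, was higher by 14.75 to 38 points and without overlap in all 7. The most negative ACIN1 difference, -18.33 points, was at a 120-nt exon in SRSF2 P95H, from a mean of 41.33% to 23%.

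In SIRT2 the difference lay at a 47-nt cassette exon (hg19 chr19:39389065-39390146 against 39384611-39390146, minus strand; GRCh38 exon chr19:38898379-38898425), which codes in SIRT2-201 and SIRT2-210 and is non-coding in SIRT2-206. Its whole sequence is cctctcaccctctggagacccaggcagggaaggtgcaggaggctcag. In sgRenilla cells usage was 36.5% in SF3B1 WT, 24.5% in K700E, 33%, 19% and 31% in SRSF2 WT, and 27%, 34% and 41% in P95H. With sgGPATCH8 it was 77% and 70.5%, 68.5% and 57.5%, 69%, 69% and 79%, and 86%, 77% and 86%. The groups were apart in each of these 4, with mean differences of 37.25, 38.5, 44.67 and 49 points.

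The same SIRT2 exon gave 57%, 46% and 37% in U2AF1 WT with sgRenilla and 86%, 79% and 69% with sgGPATCH8, and 62%, 37% and 46% against 82%, 78% and 88% in S34F. In 293T it gave 44% and 28% against 92%, 72%, 84% and 65%. The sgGPATCH8 libraries were again all higher. In the U2AF1 panel the differences were 31.33 points in WT and 34.33 in S34F, and 32.5 and 41.5 without replicate 1. There are 2 more SIRT2 events on the same exon, so they are not separate exons. The one that skips to the acceptor at 39384507 from the same donor was higher by 29.33 to 42.33 points, and the one from the donor at 39389434 by 11.67 to 43.25 points, each without overlap in 6 of 7. In the first of these, replicate 1 of the U2AF1 groups lay above the mean of replicates 2 and 3 by 13 to 36.5 points. The most negative difference among the 22 SIRT2 events, -6 points, was at a pair of mutually exclusive exons in SF3B1 WT (8% to 2%), where the control value rests on 1 run.

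In ACSL6 the difference lay between 2 mutually exclusive exons of 78 nt, 57 bases apart. The upstream exon is given first and the downstream exon second, with capitals where they differ. They are the same at 48 of 78 positions (61.5%).
ACSL6 upstream exon, chr5:131974893-131974970: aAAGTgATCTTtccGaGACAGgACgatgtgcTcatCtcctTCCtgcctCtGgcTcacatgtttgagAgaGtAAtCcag
ACSL6 downstream exon, chr5:131974758-131974835: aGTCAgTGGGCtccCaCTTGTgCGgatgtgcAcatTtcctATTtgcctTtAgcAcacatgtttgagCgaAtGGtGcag
Usage of the upstream exon against the downstream exon (hg19 junction chr5:131310663-131312341 against 131310528-131312341) was higher with sgGPATCH8 by 17.67 to 46 points in all 7 comparisons, without overlap in 6. In 293T it was 12% and 13% with sgRenilla and 62%, 51%, 54% and 67% with sgGPATCH8. The same choice read from the inner acceptor (131310642) was higher by 24 to 38.75 points, without overlap in all 7.

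The largest ACSL6 difference, 49.75 points, was at the upstream exon's own pair of acceptors in 293T, where the outer AG (131310663) is set against the inner AG 21 bases downstream (131310642). The control libraries used the outer AG at 20% and 31%, and the sgGPATCH8 libraries at 84%, 38%, 90% and 89%. The library at 38% (guide 17, replicate 1) was far from the other 3. In the SF3B1 panel the outer AG gave 69% against 90.5% and 75.5% in WT and 68.5% against 82% and 80.5% in K700E. In the SRSF2 panel it gave 54%, 87% and 84% against 98%, 95% and 99% in WT and 70%, 77% and 70% against 87%, 89% and 79% in P95H. The ACSL6 controls of these K562 cells were thus above those of 293T, and the mean differences were 12.67 to 22.33 points without overlap.

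In the U2AF1 panel the ACSL6 outer AG gave 86%, 67% and 89% against 89%, 95% and 83% in WT and 61%, 77% and 85% against 76%, 87% and 83% in S34F, and the groups overlapped in both. Without replicate 1 the U2AF1 differences were 11 points in WT and 4 in S34F, against 8.33 and 7.67 with it. The ACSL6 events are the least precise of the 6 genes: the runs of 1 library differed by a median of 6.5 points here, against 1 point over all 6 genes. The most negative ACSL6 difference, -12.33 points in SRSF2 WT, was at a 5' splice site pair that gave 83%, 95% and 86% with sgRenilla and 82%, 64% and 81% with sgGPATCH8.

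In ALDOC the difference lay at an exon in the 5' UTR that exists in 2 forms, 56 and 53 nt long, which share the donor and differ by the 3-base tandem acceptor shown above (hg19 chr17:26903038-26903819 and 26903035-26903819 against 26902562-26903819, minus strand; GRCh38 longer form chr17:28575965-28576020). The longer form is annotated in ALDOC-203 and the shorter in ALDOC-209, and neither is coding. For the longer form sgRenilla libraries gave 14% in SF3B1 WT, 14.5% in K700E, 8% and 9% in 293T, and sgGPATCH8 libraries 56.5% and 48%, 56% and 47%, and 44%, 35%, 39% and 38%. The SRSF2 WT libraries gave 40%, 36% and 41% against 57%, 60% and 58%, and the P95H libraries 38%, 32% and 34% against 69%, 62% and 68%. No group overlapped with its control. In 293T the means were 8.5% ± 0.71 (SD, n = 2) and 39% ± 3.74 (SD, n = 4).

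In the U2AF1 panel the longer ALDOC exon gave 37%, 32% and 32% against 68%, 57% and 60% in WT, and 16%, 13% and 12% against 22%, 28% and 29% in S34F. The differences over the 7 comparisons ranged from 12.67 to 38.25 points, and without replicate 1 the U2AF1 differences were 26.5 points in WT and 16 in S34F, against 28 and 12.67 with it. The shorter form had differences of 10 to 27 points, without overlap in all 7. The acceptor pair on the next ALDOC exon (hg19 chr17:26902514-26903819 against 26902511-26903819) carried the most negative difference of the 6 genes among comparisons in panels with every value, -22 points in SF3B1 WT, from 71.5% to 37% and 62%. Runs of 1 library differed by up to 60 points at this pair, and the SRSF2, U2AF1 and 293T panels lack a value in 1 or more libraries. In SRSF2 WT, where all 6 libraries had a value, it gave 68%, 84% and 49% against 60%, 21% and 6%.

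CSNK1D had no event with a difference of that size in every line. Its leading event, an acceptor pair 3 bases apart (hg19 chr17:80224770-80231182 against 80224767-80231182), gave 14%, 12% and 13% with sgRenilla in SRSF2 P95H and 35%, 14% and 35% with sgGPATCH8. The lowest sgGPATCH8 library equalled the highest control, and the means differed by 15 points. In SRSF2 WT the pair gave 16%, 8% and 19% against 13%, 24% and 16%, in SF3B1 WT 22.5% against 44.5% and 17.5%, and in K700E 17.5% against 28% and 24.5%. The groups were apart in K700E alone of these 3. The U2AF1 and 293T panels each lack a value of this CSNK1D pair in 1 library, and the other 4 comparisons differed by 3.33 to 15 points. The 1 CSNK1D event that was higher in all 7, a 482-nt cassette exon, differed by 0.67 to 6.67 points. The most negative CSNK1D difference, -6 points, was at a 64-nt exon in SF3B1 WT and K700E, from 66.5% to 60.5% and from 76% to 70% on the mean.

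**Figure D2:**
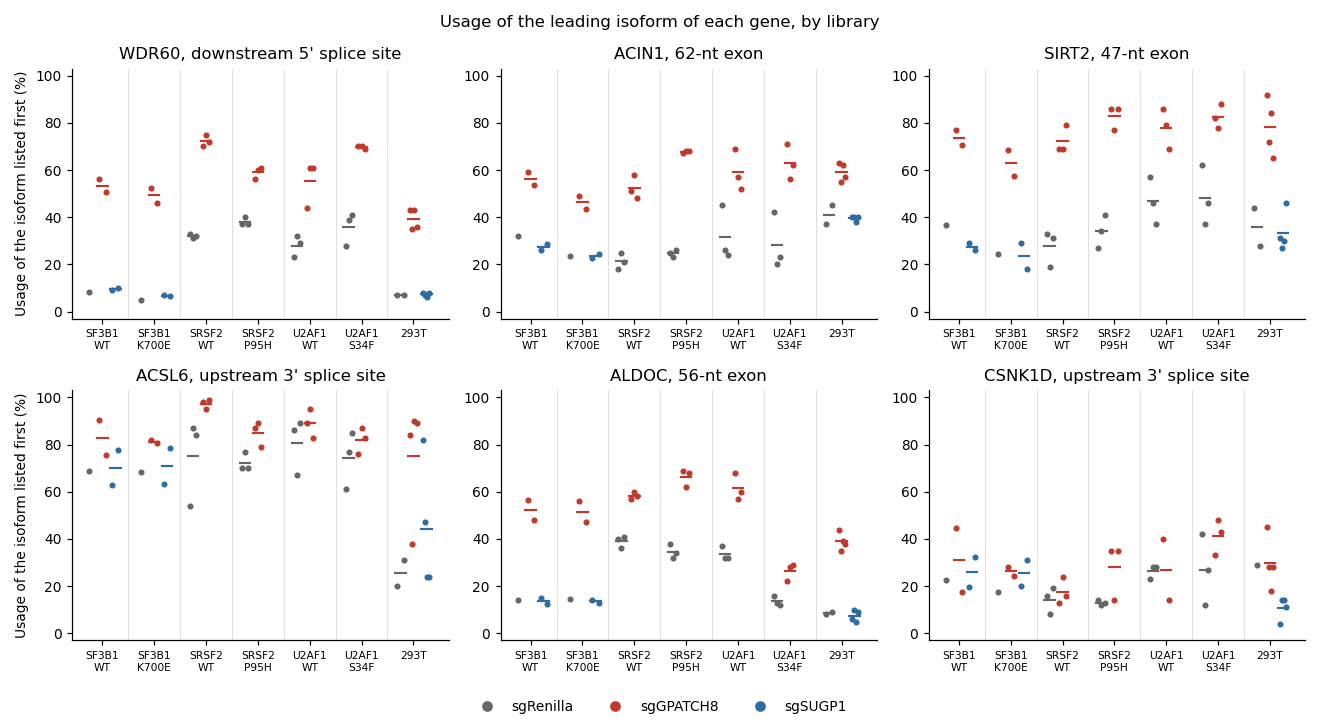
Usage of the isoform listed first (percent, y axis) for the leading event of each gene in every library, by cell line and genotype (x axis). Points are libraries (in the SF3B1 panel the mean of 2 runs), bars the group means, red sgGPATCH8, gray sgRenilla and blue sgSUGP1. In WDR60, ACIN1, SIRT2 and ALDOC every sgGPATCH8 point lies above the control points of its group, while sgSUGP1 points lie with or near the controls, and CSNK1D points overlap.

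Over all tested events, the share called higher with sgGPATCH8 (Benjamini-Hochberg adjusted p below 0.05 and a difference of at least 5 points in limma) was 1.88% in SRSF2 P95H, 0.207% in SRSF2 WT, 0.0046% in U2AF1 WT, 0.0092% in U2AF1 S34F, 0.0143% in 293T, and 0.00197% in each of SF3B1 WT and SF3B1 K700E. Of the member events tested, 12 of 33 were called higher in P95H, 8 in SRSF2 WT, 2 in U2AF1 WT, 1 in U2AF1 S34F, 4 of 32 in 293T, 1 of 36 in SF3B1 K700E and 0 of 36 in SF3B1 WT, where 11 had an unadjusted p below 0.05. Since this contrast chose the genes, nothing is read from these counts. The members' median difference ranged from 0.75 points in 293T to 4.67 in SRSF2 P95H, against 0.25 and -0.33 over all events tested. The choice of the genes implies this too, so nothing is read from it.

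Guides against SUGP1, which share their sgRenilla libraries with the comparisons above, gave the following values at the leading events. For WDR60 they gave 9% and 10% in SF3B1 WT against 8.5%, 7% and 6.5% in K700E against 5%, and 8%, 7%, 6% and 8% in 293T against 7% and 7%. For the ALDOC 56-nt exon they gave 15% and 12.5%, 14% and 13%, and 6%, 10%, 5% and 9%, against 14%, 14.5%, and 8% and 9%. These values lie within 2 points of the controls on the mean. For SIRT2 they gave 29% and 26% against 36.5% in SF3B1 WT, 9 points below, 29% and 18% against 24.5% in K700E, and 31%, 27%, 30% and 46% against 44% and 28% in 293T. For ACIN1 they gave 26% and 28.5% against 32%, 22.5% and 24.5% against 23.5%, and 40%, 40%, 38% and 40% against 37% and 45%. ACSL6 differed more: the 293T libraries gave 82%, 47%, 24% and 24% against 20% and 31%, which overlap, a mean difference of 18.75 points. The CSNK1D acceptor pair averaged 26% against 22.5% in SF3B1 WT and 25.5% against 17.5% in K700E. The sgGPATCH8 means there were 31% and 26.25%. In single runs the sgSUGP1 differences of 3.5 and 8 points became -7.5 (WT, run 1) and -0.5 (K700E, run 2). Of the 17 pairs of a leading event and a comparison with values, 8 were above 0 with sgSUGP1, against 39 of 39 with sgGPATCH8 over its own 7 comparisons. The leading events were chosen for their sgGPATCH8 difference, so nothing is read from the 39 of 39 or from setting the guides side by side.

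The comparisons of mutant with WT cells were tested over all the guides of a panel. The sgGPATCH8 libraries, whose values chose the genes, are therefore part of these means, and values by guide are given beside the calls. Over all events, 4.5% were called in K700E against WT, 0.197% in K700E against WT with sgSUGP1, 4.66% in P95H against WT and 1.44% in S34F against WT. Of the member events, 4 of 36 (11.1%) were called in K700E, 1 of 36 (2.78%) in K700E with sgSUGP1, 3 of 33 (9.09%) in P95H and 3 of 33 (9.09%) in S34F. The P95H calls include the ACIN1 leading event, which sgGPATCH8 values chose. The S34F calls were both forms of the same ALDOC exon and a CSNK1D pair. That pair passed the filter on low values only through a sgGPATCH8 group, so nothing is read from the P95H and S34F shares. The called events were in ACIN1, CSNK1D and ALDOC, and none was in WDR60, SIRT2 or ACSL6. With p below 0.05 unadjusted there were 11, 6, 13 and 8 member events (30.6%, 16.7%, 39.4% and 24.2%), against 24.3%, 17.3%, 21.5% and 15.1% of all events tested. With the mutation's difference taken over sgRenilla libraries alone, in the same fit, 0 member events were called in K700E, P95H or S34F, against 0%, 1.07% and 0.0023% of all events (limma; 6, 1 and 4 member events had an unadjusted p below 0.05, against 13%, 14.4% and 9.32% of all events). That setting was chosen after seeing the data and leaves 1 library a group in K700E, whose spread is taken to be that of the other groups.

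In K700E the 120-nt ACIN1 exon upstream of the exon above (hg19 chr14:23559310-23559731 against 23551045-23559731; coding in ACIN1-201, ACIN1-213 and ACIN1-223) was included more. The 5 WT libraries gave 15.5%, 13.5%, 14%, 17.5% and 17.5%, and the 5 K700E libraries 37.5%, 38%, 38%, 39% and 40.5%. The groups are apart, by 23 points on the mean (log2 change 1.71, SE 0.0995, limma adjusted p = 0.00577). Among sgSUGP1 libraries alone the difference was 22.25 points (log2 change 1.59, SE 0.157, adjusted p = 0.0443). The first call held with each of 10 libraries left out, and the second with 2 of 10 (adjusted p up to 0.212 without the sgSUGP1 replicate 2 of K700E). In the panels fitted separately the ACIN1 exon gave 34% to 43% in SRSF2 cells other than P95H with sgGPATCH8, 14% to 16% in U2AF1 replicate 1, 24% to 34% in U2AF1 replicates 2 and 3, and 15% to 21% in 293T. An acceptor pair at this exon, 3 bases apart, gave 89% to 94.5% in WT and 98% to 99% in K700E, a rise of 7 points (log2 change 1.98, SE 0.198, adjusted p = 0.0117). That call held with 9 of 10 libraries left out in turn (adjusted p up to 0.0503). By guide, K700E minus WT at the ACIN1 exon was 22 points with sgRenilla, 24.25 with sgGPATCH8 and 22.25 with sgSUGP1, and at the acceptor pair 7.5, 8.25 and 5.5. Over sgRenilla alone the adjusted p was 0.112 and 0.174.

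CSNK1D carried the other K700E calls. Its 64-nt exon (hg19 chr17:80203915-80206751 against 80202707-80206751) holds the annotated stop codon of CSNK1D-203, in capitals: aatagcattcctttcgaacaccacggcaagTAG. It gave 66.5%, 61%, 60%, 67.5% and 67.5% in WT and 76%, 70%, 70%, 76% and 75% in K700E (+8.9 points, log2 change 0.59, SE 0.113, adjusted p = 0.0417). The 482-nt CSNK1D exon, annotated in CSNK1D-215, a transcript classed as nonsense-mediated decay, gave 4.5%, 6%, 5.5%, 4.5% and 5.5% against 11%, 12.5%, 11%, 10% and 11%, a rise of 5.9 points (log2 change 1.06, SE 0.119, adjusted p = 0.0145). The 64-nt call was lost with any 1 of the 10 libraries left out (adjusted p 0.063 to 0.112) and the 482-nt call with 5 of the 10 (adjusted p up to 0.0563), and at both exons the groups do not overlap. By guide, in the order above, the CSNK1D differences were 9.5, 9.5 and 8 points for the 64-nt exon and 6.5, 6 and 5.5 for the 482-nt exon. Over sgRenilla alone the adjusted p was 0.36 and 0.183.

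In P95H the ACIN1 62-nt exon, taken over both guides, was higher by 9.33 points (log2 change 0.59, SE 0.133, adjusted p = 0.028). The sgGPATCH8 values that chose this exon enter that mean, so the call is given as a description. It gave 18%, 25% and 21% in WT sgRenilla and 25%, 23% and 26% in P95H sgRenilla, and the sgGPATCH8 libraries 51%, 58% and 48% against 67%, 68% and 68%, so the difference was 3.33 points without sgGPATCH8 and 15.33 with it, and that difference was not tested. The ACIN1 120-nt exon was lower by 5.5 points (log2 change -0.39, SE 0.093, adjusted p = 0.0374) and the CSNK1D 64-nt exon higher by 9.33 points (log2 change 0.55, SE 0.102, adjusted p = 0.0124). The CSNK1D exon gave 57%, 57% and 54% with 49%, 49% and 53% in WT and 57%, 58% and 60% with 69%, 64% and 67% in P95H, for sgRenilla and then sgGPATCH8, so P95H minus WT was 2.33 points in the controls and 16.33 under sgGPATCH8. The ACIN1 120-nt exon gave 38%, 40% and 42% with 34%, 36% and 36% in WT and 42%, 43% and 39% with 24%, 24% and 21% in P95H, so P95H minus WT came to 1.33 points in the controls and -12.33 under sgGPATCH8. At both exons the called difference thus came mainly from the sgGPATCH8 libraries, whose values chose the genes. The CSNK1D and ACIN1 120-nt calls are therefore also given as a description. Leaving out 1 library keeps the other sgGPATCH8 libraries in the mean. The CSNK1D call held with each of 12 libraries left out, the ACIN1 62-nt call with 3 of 12 (adjusted p up to 0.0673) and the ACIN1 120-nt call with 0 of 12 (adjusted p 0.0551 to 0.0861). Over the sgRenilla libraries alone all 3 P95H calls were lost (adjusted p 0.577 for the ACIN1 62-nt exon, 0.858 for the 120-nt exon and 0.75 for CSNK1D).

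In S34F both forms of the ALDOC exon were used less. The 56-nt form fell by 27.7 points (log2 change -1.88, SE 0.18, limma adjusted p = 0.00445) and the 53-nt form by 17.7 points (log2 change -1.76, SE 0.172, adjusted p = 0.00445). The sgGPATCH8 values that chose this exon enter both means, so both calls are given as a description. The 53-nt form gave 18%, 16% and 19% in WT sgRenilla and 7%, 4% and 5% in S34F sgRenilla, and 38%, 37% and 40% against 13%, 15% and 18% with sgGPATCH8. In both forms every S34F library was below every WT library of its guide. A 5' splice site pair of CSNK1D 4 bases apart (hg19 chr17:80213453-80223558 against 80213453-80223562) was also called, at -5.67 points (log2 change -1.36, SE 0.201, adjusted p = 0.0133), where the sgRenilla libraries of both genotypes gave 1% in all 6 and the sgGPATCH8 libraries 10%, 12% and 16% in WT against 1%, 2% and 1% in S34F. S34F minus WT was thus 0 points in the controls and -11.33 under sgGPATCH8, and the pair passed the filter on low values through the WT sgGPATCH8 group alone, so nothing is read from this call. For the ALDOC exon S34F minus WT was -20 points with sgRenilla and -35.33 with sgGPATCH8 in the 56-nt form, and -12.33 and -23 in the 53-nt form. Over sgRenilla alone both ALDOC calls were lost (adjusted p 0.121 for each), where 1 of 43468 events was called. Both ALDOC calls held with each of 12 libraries left out and the CSNK1D call with 11 of 12. Without replicate 1 of every group the 3 S34F calls were lost (adjusted p 0.0585, 0.0585 and 0.0744), with 2 libraries in each group.

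**Figure D3:**
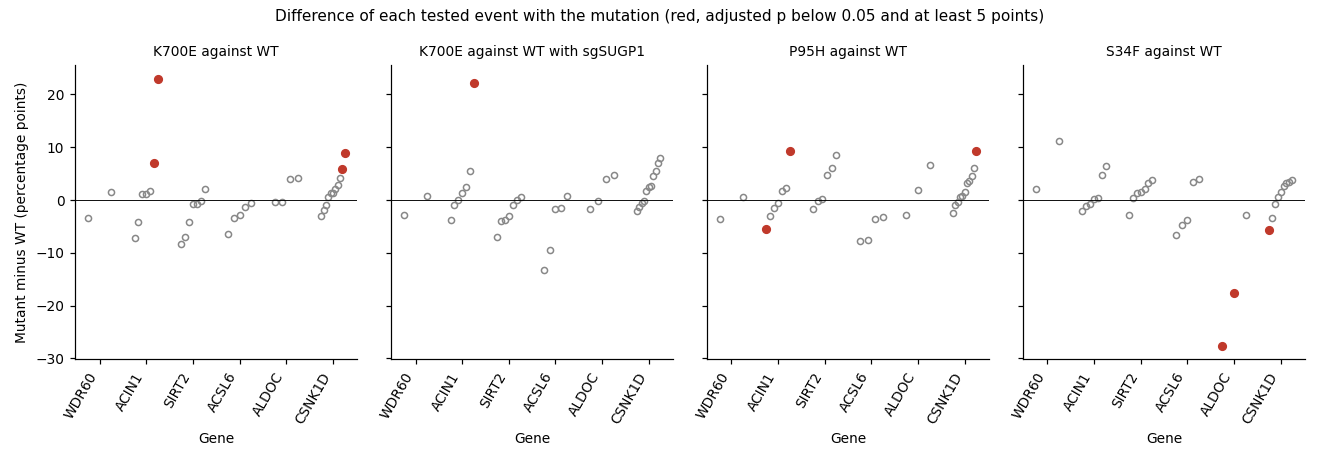
Difference in usage, mutant minus WT in percentage points (y axis), of each tested event by gene (x axis) in the 4 tested comparisons. Red points are the events called, which lie in ACIN1, CSNK1D and ALDOC, and open gray points are the others, all but 2 of which lie within 10 points of 0.

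**Figure D4:**
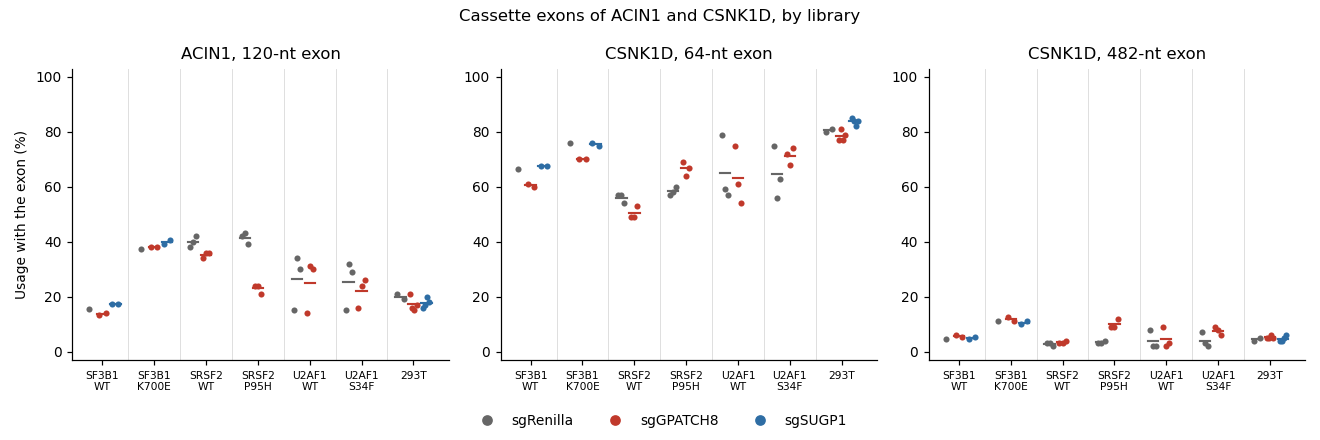
Usage of the ACIN1 120-nt exon and the CSNK1D 64-nt and 482-nt exons in every library (percent, y axis), by cell line and genotype (x axis) and guide (color). The ACIN1 exon is 13.5% to 17.5% in SF3B1 WT and 37.5% to 40.5% in SF3B1 K700E with any guide.

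Genes that act with the 6, or are of the same family, were read alongside as 6 short lists: dynein-2, the exon junction complex and ASAP, sirtuins, acyl-CoA synthetases, glycolysis and casein kinase 1. Their 111 to 132 tested events held 0 calls for higher usage with sgGPATCH8 in the 7 comparisons (limma; 1 to 22 events per comparison had an unadjusted p below 0.05) and 2 for lower, both in SRSF2 P95H. An exon of PFKM, a phosphofructokinase, fell by 8 points and an exon of CSNK1G3, a casein kinase, fell by 17.33 points. Over all events tested the share called higher with sgGPATCH8 was 1.88% in SRSF2 P95H and at most 0.207% in the other comparisons. In lists this short, nothing is read from the 0. In K700E 4 of 132 were called higher and 1 lower: an acceptor of DYNLL1, a dynein light chain, rose by 26.1 points over the guides (adjusted p = 0.00762), an exon of RNPS1, the partner of acinus in ASAP, by 8.6 and 8.7 points at 2 junctions and CSNK1G3 by 7 points, and a SIRT7 exon was called lower at -9.4. By guide the DYNLL1 acceptor went from 9% in WT to 48.5% in K700E with sgRenilla, from 11% to 48.25% with sgGPATCH8 and from 58.5% to 66.75% with sgSUGP1. The SIRT7 exon went from 51% to 54.5%, from 50.5% to 58.25% and from 50.75% to 17.75%, so its mean over guides is opposite in sign to 2 of the 3. For CSNK1G3, K700E minus WT was 1.5 points with sgRenilla, 6.75 with sgGPATCH8 and 10 with sgSUGP1. For RNPS1 it was, in the same order, 7, 10.25 and 7.75 points at 1 junction and 2.5, 12 and 8.5 at the other. With sgSUGP1 the SIRT7 exon was the 1 call of 132 and fell by 33. In P95H 3 of 115 were called higher, all spliced introns (SIRT6, PFKL and ENO2), and 5 lower. An RNPS1 exon fell by 11.83 points at 1 junction and fell by 9.17 at another, and the other 3 were in MAGOHB, ACSL4 and PFKM. In S34F 0 of 113 were called, with 15 at an unadjusted p below 0.05 in limma. Over all events tested the shares called were 4.5% in K700E, 0.197% in K700E with sgSUGP1, 4.66% in P95H and 1.44% in S34F.

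Over all 44 libraries, with each panel's mean subtracted, the leading events of 5 genes (CSNK1D lacks values) correlated with one another with r from 0.444 (ACIN1 and ACSL6) to 0.917 (ACIN1 and SIRT2). These events were all chosen for higher usage in the same sgGPATCH8 libraries, and the libraries share guides. Positive r is thus implied by the choice, and r is a description from which nothing is read. Among 23977 events with a range of at least 20 points, the 2 events most like each leading event were in DDX11 (r = 0.949) and STRN4 (0.918) for WDR60, both in POLD2 (0.924 and 0.914) for ACIN1, in PFDN5 (0.915) and ATF6B (0.913) for SIRT2, in VARS2 (0.681) for ACSL6, where 1 is given, and in ATF6B (0.9) and NRDC (0.898) for ALDOC. With sgGPATCH8 the VARS2 event itself was higher by only 0 to 2.33 points in the K562 comparisons and 7.5 in 293T. The NRDC event was higher by 3.33 to 15.5 points, and the other events named by 9 to 37. DDX11 has near-identical copies in the genome, and the ATF6B name is shared with an overlapping gene, so reads of both are uncertain.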

How the data were processed

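The deposited values are fractions (0 to 1, 2 decimals): each is the usage of an event's first isoform as the authors computed it, in 1 file per panel. Unit and scale were read from the values. The submitters' processing notes list RSEM 1.2.4, Bowtie, TopHat and TopHat2 2.0.8b with hg19 (GRCh37), without roles. The labels' protocols describe strand-specific dUTP libraries. A second run listed for SRSF2 P95H sgGPATCH8 replicate 3 was not analysed separately. That replicate has a single column of values, and whether the column holds both runs is not stated. Runs were averaged in the SF3B1 panel. Fractions u became log2((u + 0.01)/(1 - u + 0.01)), fitted in limma 3.58.1 (R 4.3.3) with a trended prior and a mean per group (per guide in 293T). Tested events had a value in every library of the panel, some group mean of at least 5% and some of at most 95%. Calls needed a Benjamini-Hochberg adjusted p below 0.05 over all tested events and 5 points. The fit was tested on simulated data. GENCODE 29 supplied annotation and sequences. The leading event of a gene was, by rule, that with the highest mean difference, sgGPATCH8 minus sgRenilla, in any of the 7 comparisons, among events complete in that panel. Members, gene lists and rules were chosen with earlier results of these data known. Alternatives were the offset, the filter, missing values, single runs, a replicate block, left-out libraries and the mutation's difference over sgRenilla libraries alone. One event among those most like the ACSL6 leading event is not reported here.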

Additional observations from a re-analysis of the deposited data

Results flagged for a closer look

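In 293T, the ACSL6 acceptor pair stood at 38% in guide 17 replicate 1 with sgGPATCH8, while the other 3 libraries gave 84%, 90% and 89%. In 293T sgSUGP1 the ACIN1 62-nt exon gave 38% in guide 3 replicate 2 against 40% in the other 3, a gap of 2 points. About 1 in 20 groups is marked so by chance, and 12 were looked at.

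In WDR60 the P95H effect went opposite ways by guide: SRSF2 P95H was above WT with sgRenilla (38% against 32%) and below it with sgGPATCH8 (59% against 72.33%), a difference of -19.33 points that was not tested. In CSNK1D the 64-nt exon was lower with sgGPATCH8 in SRSF2 WT (56% to 50.33%) and higher in SRSF2 P95H (58.33% to 66.67%), a difference of 14 points that was not tested. A pair of mutually exclusive SIRT2 exons was lower with sgGPATCH8 in SF3B1 WT (8% to 2%) and higher in SF3B1 K700E (2.5% to 9.5%), a difference of 13 points, read either as the guide's effect by genotype or as the mutation's effect by guide. It was not tested, each control is 1 library, and several runs lack a value.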

How the results depend on the processing

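The 4 K700E calls became 0 under the replicate block (adjusted p 0.0684 to 0.124; calls over all events went from 2287 to 0 of 50823, with 13 of 36 member events and 22.5% of all at an unadjusted p below 0.05 in limma), 2 with run 1 alone (165 over all events, 0.341%), 2 with run 2 alone (669, 1.38%), and 1 to 3 when a library was left out. An offset of 0.05, no filter and 1 missing value each gave 4. The call with sgSUGP1 became 0 at an offset of 0.05 (adjusted p 0.0537; all events from 100 to 18), with 1 missing value allowed (0.0518; to 45) and with run 1 alone (0.338; to 0), and ranged from 0 to 1 when a library was left out. The 3 P95H calls became 2 under the replicate block (all events from 2050 to 1562) and 1 to 2 when a library was left out. The 3 S34F calls stayed 3 under the replicate block and were 2 to 3 when a library was left out, and 0 without replicate 1 of every group (0 of 44733 over all events; 13 of 31 member events and 17.3% of all at an unadjusted p below 0.05), an alternative added after seeing the data. Over sgRenilla libraries alone, also added later, the K700E, P95H and S34F counts became 0, the ACIN1 120-nt exon in P95H turned from -0.39 to 0.078 on the log2 scale and the CSNK1D 5' splice site pair in S34F went to 0. The causes were not tested. In the SF3B1 panel the replicate number of a sgGPATCH8 or sgSUGP1 library also marks its guide, in both genotypes. The replicate block there is thus a block by guide. The replicate numbers were not treated as pairs, since not every pair of same-numbered libraries deviated with r above 0.1. Their r was -0.045 to 0.031 in SRSF2, 0.009 to 0.014 in SF3B1 and 0.067 to 0.394 in U2AF1, where all 18 were positive and 13 were above 0.1. Pairs of different number in U2AF1 had r from -0.24 to 0.125. Those of replicate 1 with replicate 2 or 3 were all negative and those of 2 with 3 all positive, so replicate 1 stood apart. Leading events stayed above 0 with sgGPATCH8 in 38 to 39 of 39 pairs when a library was left out, and in 38 with either run alone. These leading events were chosen on that difference, so nothing is read from the count. With sgSUGP1 they ranged from 7 to 9 of 17, and gave 6 with run 1 and 7 with run 2. The lone SF3B1 sgRenilla libraries could not be left out there. Of 212 single sgGPATCH8 differences recomputed for the leading events, 3 changed sign: CSNK1D in SF3B1 WT to -5 points without sgGPATCH8 replicate 1, ACSL6 in SF3B1 WT to -2 points in run 1, and ACSL6 in K700E to -1 point in run 2. Of 72 with sgSUGP1, 19 changed sign.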
